A study of Mus musculus with 8 samples.

Results

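The comparison described here follows mouse fat-forming cells from 3 h to 6 h in medium conditioned by USP2-knockdown human cells. It rests on 4 of the 8 arrays of the series, 2 at 3 h and 2 at 6 h, chosen by the supernatant and time that the labels give. The recipient cells were 3T3-L1, an established mouse fibroblast line that can become fat cells, held in adipogenic medium for 1 week. The medium came from HL-60, a human leukemia line, in which USP2 had been knocked down. These donor cells had been kept in Opti medium with 30 nM PMA, a phorbol ester that turns them macrophage-like, for 5 days, and their supernatant was applied after 2-fold dilution. The other 4 arrays carry the same 2 times with supernatant of HL-60 cells that received a mock vector. Both supernatants share the PMA, the culture medium and the dilution, so none of the groups is free of them. No array was taken before the supernatant was added, and each value is therefore a difference between 2 times of exposure and not a response from rest. USP2 was reduced in the human donor cells, so the mouse Usp2 probe does not check the knockdown.

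USP2 removes ubiquitin from proteins. Macrophage-like cells release cytokines and growth factors, and a phorbol ester carried over in their medium acts on protein kinase C of the recipient cells. In fibroblasts and fat cells, receptors for such signals switch on a short first wave of genes. That wave holds transcription factors of the AP-1, Egr and Nr4a families and growth factors. Its own inhibitors follow, such as the phosphatases that switch off the kinase ERK. Secreted proteins of the acute phase usually build up more slowly. Genes that feed ribosome production, and genes of the circadian clock, are also touched by serum and growth factors.

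Each array carried 59305 non-control spots, of which 50.81% to 55.93% were well above background on the 4 knockdown arrays and 0 were saturated. Values below are log2 processed signals minus the array's own 75th percentile, called the level here, and a change is the 6 h level minus the 3 h level. The 2 arrays of a time correlated at 0.9981 at 3 h and 0.9937 at 6 h. The labels call them biological replicates without saying whether supernatants were prepared separately. The p-values here therefore speak of array-to-array spread alone, part of which may be technical. This spread is taken over all 8 arrays of the fit, so noise on control arrays widens the errors too. The control arrays correlated at 0.9974 at 3 h and 0.9886 at 6 h. All 3 h arrays lay in row 1 of the slide and all 6 h arrays in row 2, so time and slide row cannot be told apart. The 8 added control RNAs, which do not come from the cells, had a median change of -0.095 between the same arrays, with a range from -0.132 to -0.084. All 10 markers of preadipocytes and fibroblasts were well above background on all 4 arrays. Of 14 markers of fat cells, 5 were (Pparg, Cebpa, Fabp4, Lpl and Retn) and 9 were above background on none, among them Adipoq, Plin1, Cd36, Cidec and Slc2a4. The labelled fat cells thus lacked most defining transcripts of mature fat cells on these arrays. Macrophage markers Ptprc, Adgre1, Tyrobp and Mpo were above background on none of the 4 arrays. The 10 endothelial and muscle markers were split. Cdh5, Tek, Myh11, Myod1 and Actc1 were above background on none, and Pecam1, Kdr, Vwf, Des and Tnnt2 on all 4. The 5 macrophage and leukocyte markers that were tested had a summed linear level of 52.5 to 54.2 times the 75th percentile at 3 h and 37.3 to 40.3 times at 6 h, a sum that its brightest probes dominate. By member, Cd14 rose (0.31), Itgam fell (-0.56), and Lyz2 (-0.21), Fcer1g (-0.32) and Csf1r (-0.05) did not pass. The summed level of the 5 fat cell markers went from 60.6 to 61.6 times at 3 h to 53.7 to 55.3 times at 6 h. The part of such cells in the results was not tested. In whole-culture RNA, fewer cells of a type and less RNA per cell cannot be told apart.

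Between 3 h and 6 h a large part of the measured transcripts moved. Of 25428 genes and unnamed probes tested, 10349 (40.7%) changed at an adjusted p under 0.05 in limma. At 6 h 4569 were higher (18%) and 5780 lower (22.7%). A change of at least 2-fold was found in 2410 (9.48%), 1345 of them higher (5.29%) and 1065 lower (4.19%). Among genes with a symbol, 3039 rose and 3546 fell. The arrays of the 2 times did not overlap for any of the 10349, but this also held for 78% of everything tested. Changes were found at all signal levels, in 29.5% of the dimmest of 4 equal classes by signal, 53.1% of the third and 36.8% of the brightest. The count fell to 6768 without knockdown 3 h replicate 1, and the number lower fell to 3503 without that array and to 3655 without knockdown 3 h replicate 2. The median change over all tested was -0.11, and it depended on how arrays were brought to a common scale. It was -0.20 with the array median as the reference, when 32.5% of calls were higher against 44.1% in the main scaling. With no scaling it was 0.05, when 66.5% were higher. A small change near these shifts therefore has no settled direction, and the changes below are read against the median of -0.11. Counts of rises and falls in each gene list below are to be held beside the 18% higher and 22.7% lower of everything tested.

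The largest rises were taken among called named genes with signal on all 4 arrays and no overlap of the 2 times. They began with Kif26b, a kinesin family member. Its level was -1.77 and -1.71 at 3 h and 1.77 and 1.93 at 6 h. The 2 times were far apart for it, at 12.1-fold (log2 change 3.60 ± 0.08 SE, n = 2 arrays per time, adjusted p = 8.18e-05). Meox2, a homeobox transcription factor, went from 0.01 and 0.05 to 2.83 and 2.83 (2.80 ± 0.06, adjusted p = 8.18e-05). Neat1, a long noncoding RNA that builds nuclear paraspeckles, went from 2.65 and 2.68 to 5.33 and 5.22 (2.60 ± 0.08, adjusted p = 8.18e-05). Mbp (3.16 ± 0.13), Ikzf2 (2.86 ± 0.19), Rpusd3 (2.72 ± 0.06), Slitrk6 (2.70 ± 0.09), Ccdc89 (2.64 ± 0.43), Armc2 (2.52 ± 0.21), Zfp810 (2.52 ± 0.17) and Chac1 (2.49 ± 0.07) rose as well. Ikzf2 encodes the lymphoid transcription factor Helios, and Mbp encodes myelin basic protein. Ifi214, an interferon-inducible gene, stood apart among the largest rises because its 6 h arrays differed widely, at -0.24 and -2.67, against -4.15 and -3.75 at 3 h. Its change of 2.50 ± 0.73 had an adjusted p of 0.0398. That call was lost when either 3 h knockdown array (adjusted p 0.159 and 0.112) or any control array (0.0705 or 0.0513) was left out.

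**Figure D1:**
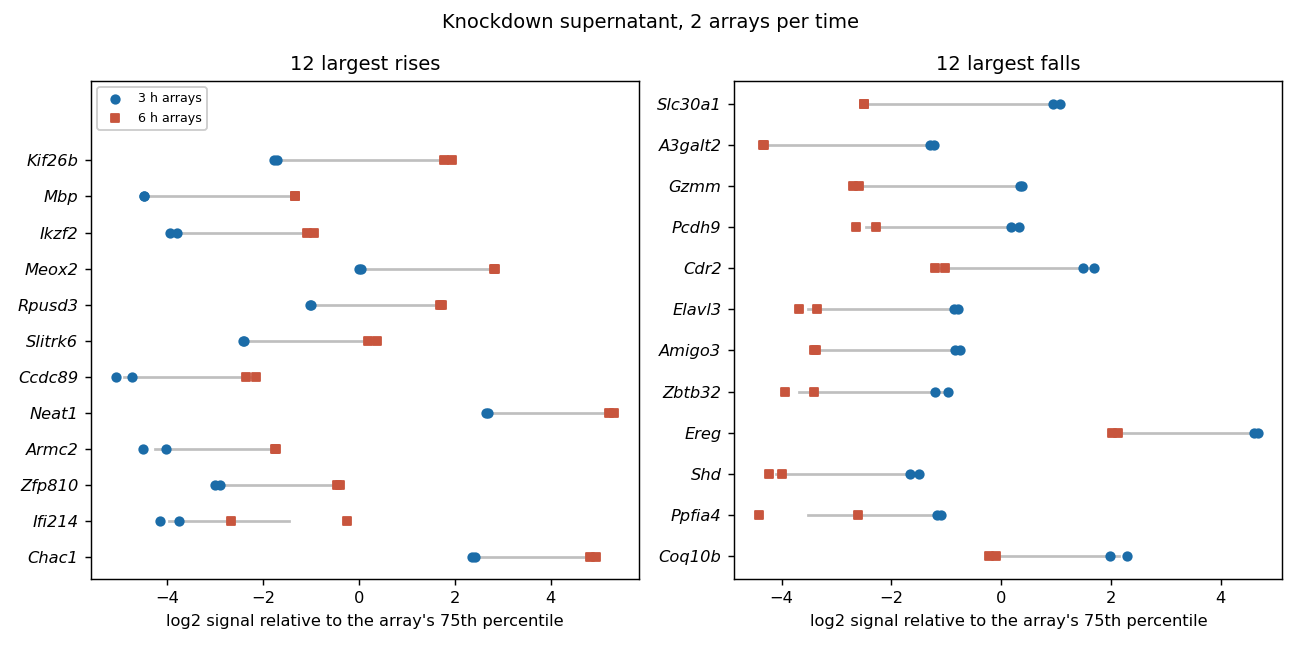
Levels of the 12 named genes with the largest rises (left) and falls (right) in cells given knockdown supernatant; circles are the 2 arrays at 3 h, squares the 2 arrays at 6 h, and grey lines join the group means. The horizontal axes give log2 signal relative to the array's 75th percentile, and the 3 h and 6 h points of each gene lie apart, most widely spread at 6 h for Ifi214 and Ppfia4.

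Under the same conditions the largest fall belonged to Slc30a1, the zinc exporter of the cell surface. Its level was 0.94 and 1.07 at 3 h and -2.50 and -2.50 at 6 h. This was a fall of 11.3-fold (log2 change -3.50 ± 0.07, adjusted p = 8.18e-05), with both 6 h arrays far under both 3 h arrays. Ereg, the gene of the EGF receptor ligand epiregulin, went from 4.67 and 4.60 to 2.03 and 2.13 (-2.56 ± 0.07, adjusted p = 8.18e-05). Gzmm, a granule serine protease of lymphocytes, went from 0.34 and 0.38 to -2.69 and -2.59 (-3.00 ± 0.06, adjusted p = 8.18e-05). A3galt2 (-3.07 ± 0.16), Pcdh9 (-2.72 ± 0.13), Cdr2 (-2.71 ± 0.13), Elavl3 (-2.69 ± 0.12), Amigo3 (-2.60 ± 0.08), Zbtb32 (-2.59 ± 0.22) and Coq10b (-2.30 ± 0.12) fell too. Shd (-2.53 ± 0.48) and Ppfia4 (-2.38 ± 0.53) fell with a wider error. The call of Shd was lost without knockdown 3 h replicate 1 (adjusted p = 0.05135), and that of Ppfia4 without either 3 h knockdown array (0.0761 and 0.0703). Gzmm and Elavl3, a neuronal RNA-binding protein gene, are not usual transcripts of fibroblasts, and each was read by 1 probe.

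Some transcripts were above background at 1 time alone, so that their size is a bound. Tbxa2r, the thromboxane receptor gene, was at least 6.33-fold lower at 6 h, Grb7, an adaptor of receptor kinases, at least 5.53-fold, and Ldb2, a LIM-domain cofactor, at least 4.47-fold. These genes entered the test only through their 3 h signal. In the other direction, the noncoding RNA Mirt2 was at least 13-fold higher at 6 h, Sprr2e at least 9.91-fold, Tmie at least 8.6-fold and Cd33 at least 7.54-fold. In these rises the 6 h arrays disagreed strongly, as at -0.03 and -4.19 for Mirt2, and the 6 h replicate 1 array was the higher for all of them. The size rests on that array: without it the log2 changes were 2.99 for Mirt2, 2.46 for Sprr2e, 1.84 for Tmie and 1.60 for Cd33. Without the other 6 h array they were 7.16, 5.20, 5.76 and 4.61 in the same order. Without knockdown 3 h replicate 1 their adjusted p-values were 0.0904 for Mirt2, 0.0766 for Sprr2e, 0.1425 for Tmie and 0.15 for Cd33. Without knockdown 3 h replicate 2 they were 0.086, 0.0633, 0.152 and 0.125 in the same order. For Tmie and Cd33 the call was also lost without either control 3 h array (0.0776 and 0.0716), and for Tmie without either control 6 h array (0.058). Normexp background correction ended all these calls too (adjusted p 0.0759 to 0.162).

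Genes of mitosis fell nearly as a block. Of 30 tested, 28 were lower at 6 h, 1 was higher and 1 was not called, against 22.7% lower among everything tested, and the median change of the list was -0.75. Changes were moderate: 4 members fell at least 2-fold, namely Ccnb1, Kif11, Nusap1 and Hmmr. Promoters of 2 of the falling genes are shown here because they carry some of the letters that cell cycle genes often share.

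The windows cover the 150 bases before the transcription start, in gene orientation, from RefSeq on GRCm38.p6. Capitals mark the CCAAT box (letters CCAAT) and the cell cycle genes homology region, or CHR (letters TTTGAA). Cdc20 lies at chr4:118437344-118437493 and Ccnb1 at chr13:100786487-100786636, both on the minus strand.
Cdc20: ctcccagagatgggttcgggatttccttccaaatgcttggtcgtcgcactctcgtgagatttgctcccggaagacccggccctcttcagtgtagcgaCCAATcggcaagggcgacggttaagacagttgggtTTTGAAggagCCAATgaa
Ccnb1: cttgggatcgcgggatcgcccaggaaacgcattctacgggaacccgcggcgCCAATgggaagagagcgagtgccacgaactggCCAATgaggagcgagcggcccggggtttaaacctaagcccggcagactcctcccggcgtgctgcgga
In Cdc20 the CCAAT boxes begin at -53 and -8 and the CHR at -18, and in Ccnb1 the CCAAT boxes begin at -99 and -67. The exact letters TTTGAA were found on neither strand of the Ccnb1 window, and other spellings of the CHR were not searched. On either strand of the 300-base windows, which reach 50 bases past the start, CCAAT was found in 21 of the 26 mitosis genes with an entry (80.8%) and TTTGAA in 18 (69.2%). Over all 27025 genes with an entry the shares were 41.1% and 20.2%, and over the tested genes 43.2% and 14.8%. The letters of these motifs do not overlap each other, and a match is a description of the sequence alone.

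Ccnb1, which encodes cyclin B1, the activator of the mitotic kinase, had levels of 2.64 and 2.52 at 3 h and 1.22 and 1.44 at 6 h. Its change was -1.25 ± 0.09 (adjusted p = 0.000317), with no overlap between the times. Cdc20, the activator of the anaphase-promoting complex, went from 3.40 and 3.32 to 2.47 and 2.59 (-0.84 ± 0.08, adjusted p = 0.000724). Prc1, which bundles the microtubules of the spindle midzone, went from 2.34 and 2.27 to 1.44 and 1.49 (-0.84 ± 0.06, adjusted p = 0.000323). Hmmr, a spindle-associated protein gene, changed by -1.05 ± 0.10. The polo kinase gene Plk1 (-0.85), the aurora kinase gene Aurka (-0.87), the proliferation marker Mki67 (-0.77) and the topoisomerase gene Top2a (-0.61) also fell. Cdc25b, a phosphatase that activates cyclin-dependent kinases, was the 1 member that rose, by 0.25. Cdk1, the mitotic kinase itself, went from 1.55 and 1.51 to 0.93 and 0.96, and at -0.58 ± 0.35 it did not pass (adjusted p = 0.229). Its knockdown arrays agreed closely within each time, so the wide error came from the control arrays, which share the fit. With each of the 8 arrays left out in turn, 24 to 29 members remained called as lower, and with no scaling between arrays 13 were. The control supernatant gave a median change of -0.72 for the same list.

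Genes of the step before, entry into and passage through S phase, did not move as a block. Of 37 tested, 6 rose and 7 fell, shares near the 18% and 22.7% over everything tested, and the median was 0.01. With an array left out, 3 to 7 rose and 2 to 7 fell, with 3 rises without knockdown 3 h replicate 1 and 2 falls without knockdown 3 h replicate 2. No scaling gave 4 rises and 0 falls. Cdkn1b, the inhibitor p27 of cyclin-dependent kinases, rose from 2.99 and 2.98 to 3.76 and 3.92 (0.86 ± 0.08, adjusted p = 0.000661). E2f2, an E2F transcription factor gene, rose by 1.21 ± 0.08 and the replication helicase gene Mcm3 by 0.39 ± 0.06. Slbp, which binds histone messages, fell by 0.68 ± 0.10. The bright Cdk4 (0.19 ± 0.06, adjusted p = 0.0591) and Pcna (-0.14 ± 0.06, adjusted p = 0.133) did not pass. Without scaling the calls on Mcm3 and Slbp were lost.

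Many ribosome production genes were lower at 6 h. Of 39 tested genes of Myc and ribosome biogenesis, 23 fell, against 22.7% of everything tested. Pes1 alone rose, by 0.34, and the median was -0.59. At least 2-fold falls were seen in 9. Nop58, a core protein of small nucleolar particles, had levels of 4.87 and 4.93 at 3 h and 3.27 and 3.26 at 6 h (-1.63 ± 0.08, adjusted p = 0.000125). Ddx21, an RNA helicase of the nucleolus, went from 2.72 and 2.77 to 1.00 and 1.19 (-1.65 ± 0.08, adjusted p = 0.00014). Gnl3, which encodes nucleostemin, went from 3.56 and 3.45 to 1.98 and 2.03 (-1.50 ± 0.07, adjusted p = 0.000119). The arrays of the 2 times stood well apart for these genes. Wdr43, a factor of the small subunit precursor, fell by 1.34 ± 0.07, and Rrs1 (-1.55), Nolc1 (-1.27), Nop2 (-1.07) and Utp4 (-1.02) fell at least 2-fold, as did Max (-1.38), the partner of Myc. Myc itself did not pass (0.14 ± 0.08, adjusted p = 0.199), nor did the abundant nucleolar genes Npm1 (0.02 ± 0.08) and Ncl (0.09 ± 0.08). For Ncl another probe moved the other way at an unadjusted p under 0.05. Leaving out each array in turn gave 21 to 24 falling members, and no scaling gave 13. The E-box letters CACGTG were present on either strand in 8 of the 31 genes with a promoter entry (25.8%). They were present in 8.09% of all genes and 11.2% of tested genes with one. In the clock list the share was 29.4%, so a high share was not particular to this list.

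Ribosomal protein genes, whose products the biogenesis factors assemble, were rarely called. Of 44 ribosomal protein genes tested, 1 was called: Rps7 went from 7.41 and 7.37 to 7.10 and 7.12 (-0.28 ± 0.08, adjusted p = 0.0348). That call was lost whenever a knockdown array or a control 3 h array was left out, with adjusted p-values of 0.0647 to 0.147. The list's median was -0.13, near that of everything tested, and its sign turned with no scaling (0.03) where no member was called. The brightest uncalled members were Rpl34 (0.00 ± 0.12) and Rps14 (-0.13 ± 0.10). Among 20 cytosolic aminoacyl-tRNA synthetase genes, which charge transfer RNAs with amino acids, 7 fell and Dars rose by 0.50, with a median of -0.19. Aars, the alanine enzyme, fell by 0.41 ± 0.07 and Eprs, the glutamate and proline enzyme, by 0.34 ± 0.06, while Gars (-0.24 ± 0.09) and Kars (-0.03 ± 0.06) did not pass. With no scaling 0 synthetase genes fell and 1 rose, with 3 to 10 falls over single arrays left out.

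Clock genes moved in 1 direction. The clock is a loop in which Clock and Arntl drive the Per, Cry and Nr1d repressors. Of 22 tested, 14 fell and 0 rose, against 22.7% and 18% of everything tested, with a median of -0.53. Per2 went from -1.61 and -1.70 to -3.36 and -3.28 (-1.66 ± 0.08, adjusted p = 0.000125). Cry1 went from -1.85 and -1.67 to -3.65 and -3.42 (-1.78 ± 0.11, adjusted p = 0.000204). Nr1d1, which encodes the repressor REV-ERB alpha, went from -0.37 and -0.34 to -1.88 and -1.74 (-1.45 ± 0.09, adjusted p = 0.000192). Both arrays at 6 h were below both at 3 h in each case. Nr1d2 fell by 1.32 ± 0.11 and Ciart, a further repressor of the loop, by 1.07, which completes the 5 members that fell at least 2-fold. Smaller falls were found for Bhlhe40 (-0.91), the activator Clock (-0.83), the output factor Dbp (-0.80) and Cry2 (-0.58). Arntl (-0.24 ± 0.10, adjusted p = 0.115) and Per1 (-0.22 ± 0.10, adjusted p = 0.126) did not pass, and neither did the output factors Tef (-0.30 ± 0.09, adjusted p = 0.0502) and Nfil3 (-0.11 ± 0.09). Mouse Usp2, itself a clock output gene, went from -2.56 and -2.76 to -3.17 and -3.04 (-0.44 ± 0.11, adjusted p = 0.0199). Its call was lost without knockdown 3 h replicate 1 (0.104) or knockdown 6 h replicate 1 (0.0965), and with no scaling (0.424). Over single arrays left out, 12 to 15 clock members fell, and with no scaling 8 did.

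**Figure D2:**
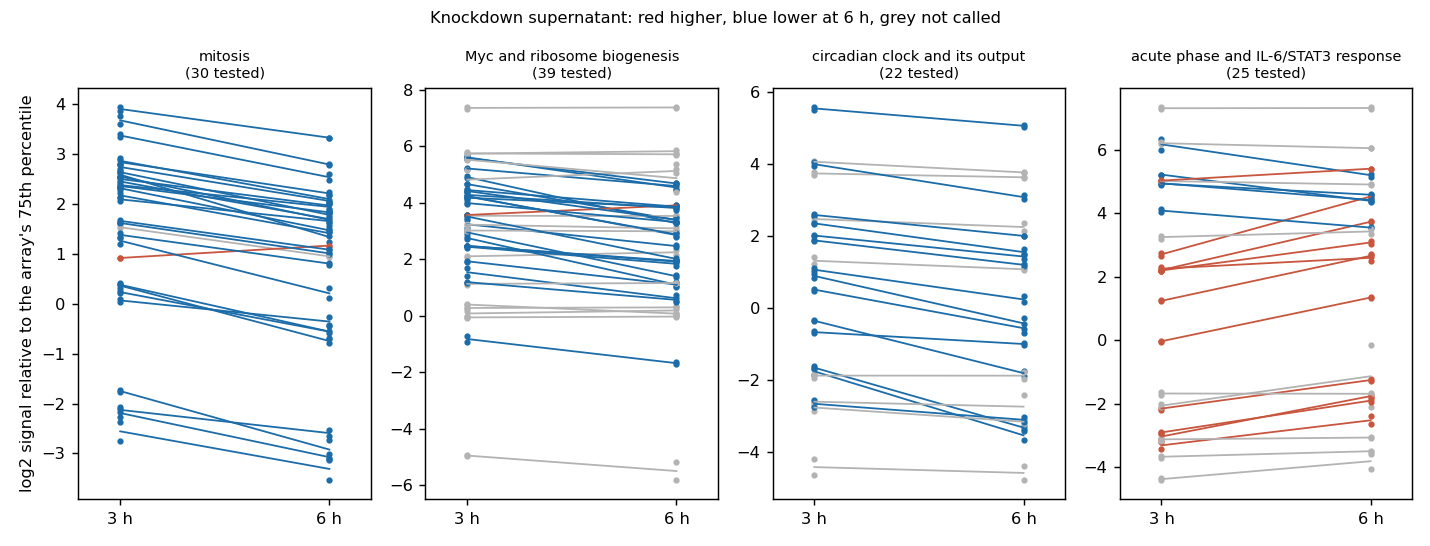
Levels at 3 h and 6 h of each tested member of 4 gene lists in cells given knockdown supernatant; points are single arrays and lines join the group means, red for members called higher at 6 h, blue for lower and grey for not called. Blue lines make up 28 of 30 in mitosis, 23 of 39 in Myc and ribosome biogenesis and 14 of 22 in the clock, while red lines make up 11 of 25 in the acute phase list.

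Immediate early transcription factors were mostly lower at 6 h than at 3 h. Of 27 tested, 19 fell, 2 rose and 6 were not called, with a median of -0.44. Of everything tested, 22.7% fell and 18% rose. Fosl1, which encodes the AP-1 member FRA1, went from 3.39 and 3.49 to 1.75 and 1.82 (-1.65 ± 0.09, adjusted p = 0.00015). Junb, its dimer partner, went from 1.27 and 1.36 to -0.33 and -0.34 (-1.65 ± 0.10, adjusted p = 0.000212). Srf, the serum response factor, went from 3.27 and 3.22 to 1.73 and 1.71 (-1.53 ± 0.06, adjusted p = 0.000101). Each of these genes had both 6 h arrays under both 3 h arrays by over 1 log2 unit. Mafk fell by 1.39 ± 0.06, the orphan receptor gene Nr4a1 by 1.36 ± 0.12, and Fosb by 2.08 ± 0.21. Fos itself was low and fell by 0.37 ± 0.08 (adjusted p = 0.014), Egr1 by 0.44 ± 0.08, Jun by 0.92 ± 0.12 and Atf3 by 0.90 ± 0.10. The 2 members that rose were Maf (0.94 ± 0.10), a large Maf factor, and Npas4 (0.65 ± 0.18, adjusted p = 0.036). Jund (-0.24 ± 0.11, adjusted p = 0.127) and Ier3 (-0.16 ± 0.07, adjusted p = 0.122) did not pass. Of the same list, 15 to 19 members were lower with an array left out and 12 with no scaling.

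Inhibitors of ERK signalling gave the lowest list median, -0.78, with 13 of 20 tested members lower and 5 higher. The shares over everything tested were 22.7% lower and 18% higher. Dusp5, a nuclear phosphatase of ERK, went from -2.12 and -1.74 to -4.36 and -4.61 (-2.55 ± 0.16, adjusted p = 0.000216), and 1 of its 6 h arrays was not well above background. Errfi1, an inhibitor of the EGF receptor, went from 5.72 and 5.78 to 4.34 and 4.31 (-1.43 ± 0.06, adjusted p = 0.000103). Dusp4, a further nuclear phosphatase, went from 1.53 and 1.61 to 0.53 and 0.53 (-1.04 ± 0.06, adjusted p = 0.000203). Each had separate times. Spry2 (-1.43), Spred2 (-1.23), Dusp6 (-0.997) and Dusp1 (-0.71) fell as well. The 5 that rose were Etv5 (0.29), Dusp8 (0.75), Spry1 (1.18), Etv4 and Spred3, of which Etv4 and Etv5 are ERK-responsive Ets factors and not inhibitors. Etv4 went from 1.80 and 1.72 to 2.97 and 3.08 (1.26 ± 0.08, adjusted p = 0.000204). Spred3 was not above background at 3 h and was at least 3.78-fold higher at 6 h. The call on Etv5 was lost whenever a knockdown array was left out (adjusted p 0.0747 to 0.132) and with median scaling (0.184). Dusp2 had 6 h arrays on both sides of its 3 h level, at -2.98 and -0.89 against -1.53 and -1.53, and was not called (-0.41 ± 0.62, adjusted p = 0.631), as Dusp16 was not (0.07 ± 0.08). Counts with single arrays left out stayed at 13 to 14 lower, and no scaling gave 9.

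Secreted growth factors and cytokines divided. Of 29 tested, 15 fell and 10 rose, and 4 were not called, with a median of -0.43. The ligands of the EGF receptor went both ways: Ereg fell as described above, Hbegf went from 3.55 and 3.54 to 1.48 and 1.57 (-2.03 ± 0.08, adjusted p = 0.000101), and the dimmer Btc rose from -4.61 and -4.61 to -3.41 and -3.10 (1.36 ± 0.28, adjusted p = 0.0116). Fgf2, the basic fibroblast growth factor gene, was above background at 3 h and on neither 6 h array, and was at least 1.56-fold lower. Il6 fell from 0.32 and 0.33 to -0.51 and -0.36 (-0.76 ± 0.09, adjusted p = 0.00147). The colony-stimulating factor genes Csf1 (-0.94) and Csf2 (-1.16) and the angiogenic factor gene Vegfa (-0.64) also fell. Bdnf, a neurotrophin gene, rose from 0.21 and 0.10 to 1.37 and 1.43 (1.25 ± 0.07, adjusted p = 0.000159). Il33, an alarmin of stromal cells, rose from 0.50 and 0.57 to 2.19 and 2.21 (1.66 ± 0.09), and Fgf21, a metabolic hormone, from -1.85 and -1.84 to -0.14 and -0.19 (1.68 ± 0.10). Fgf7 (-0.22 ± 0.07, adjusted p = 0.0589) and Il11 (-0.55 ± 0.19, adjusted p = 0.0673) did not pass. With no scaling 8 members fell.

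Acute phase genes rose more often than they fell. Of 25 tested, 11 rose and 5 fell, against 18% and 22.7% over everything tested, and 6 rose at least 2-fold against 5.29%. The median was 0.34. The serum amyloid A gene Saa3, a lipoprotein-borne protein of inflammation made by fat cells, had levels of 2.74 and 2.67 at 3 h and 4.50 and 4.57 at 6 h. It rose 3.54-fold (1.82 ± 0.06, adjusted p = 8.34e-05) with the times far apart. Hp, which encodes the haemoglobin-binding haptoglobin, went from 2.19 and 2.24 to 3.71 and 3.76 (1.52 ± 0.07, adjusted p = 0.000115). Saa1 went from 1.23 and 1.26 to 2.63 and 2.69 (1.42 ± 0.10, adjusted p = 0.000299). Serpina3f, a protease inhibitor gene, went from -0.02 and -0.04 to 1.36 and 1.34 (1.38 ± 0.09, adjusted p = 0.000247). Saa2 (1.27) and the ferric reductase gene Steap4 (1.00) complete the 2-fold rises. Saa1 and Saa2, and the Serpina3 genes, are close copies whose probes may share signal. Those that fell were not acute phase products but parts of the pathway that drives them: Cebpb (-0.97), Stat3 (-0.83 ± 0.09), the receptor genes Il6ra (-0.54) and Il6st (-0.35), and the feedback inhibitor Socs3 (-0.53 ± 0.08). Complement C3 (0.01 ± 0.08) and Cebpd (-0.16 ± 0.08) were bright and did not pass. Single arrays left out gave 8 to 11 rising members, and median scaling and no scaling gave 9 each.

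With control supernatant the change of these acute phase genes had smaller values. Saa3 changed by 0.66 there, Hp by 0.47, Saa1 by 0.54 and Serpina3f by 0.67. The difference of the 2 changes had an adjusted p of 0.0872 for Saa3, the smallest of all genes tested, and 0.1525 for Hp, 0.303 for Saa1 and 0.368 for Serpina3f. These 4 differences did not pass 0.05. The 4 genes had the list's smallest p for the knockdown change, a choice that favours larger values with knockdown supernatant. The list's medians were 0.34 with knockdown and 0.12 with control supernatant.

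The other inflammatory lists were mixed. Of 27 tested genes of NF-kB feedback and the TNF response, 9 rose and 10 fell, with a median of 0.06. Traf1, a signalling adaptor of TNF receptors, rose from -1.12 and -1.43 to -0.22 and -0.16 (1.09 ± 0.12, adjusted p = 0.00106), and Bcl3, an atypical inhibitor protein of NF-kB, rose by 0.64 ± 0.07. The TNF receptor gene Tnfrsf1b fell from 0.79 and 0.77 to -0.96 and -0.82 (-1.67 ± 0.15, adjusted p = 0.000584), and Zc3h12a, a nuclease that destroys cytokine messages, by 1.07 ± 0.06. Sod2 (0.16 ± 0.08) and Vcam1 (0.06 ± 0.06) did not pass. These counts were 4 and 7 without knockdown 3 h replicate 1, 7 and 6 without knockdown 3 h replicate 2, 5 and 8 without knockdown 6 h replicate 2, and 3 and 2 with no scaling. The sign of the median turned under median scaling, to -0.03. Of 14 tested chemokines, Cxcl12 (1.08 ± 0.07), Cx3cl1 (0.63 ± 0.07) and Ccl11 (0.68) rose, and Cxcl1 (-0.86 ± 0.08), Ccl7 (-0.79 ± 0.06), Ccl2 (-0.71) and Cxcl10 (-0.58) fell. Cxcl12, which attracts leukocytes and stem cells, went from 4.06 and 4.11 to 5.15 and 5.18, while Ccl5 (-0.13 ± 0.06) and Ccl8 (-0.11 ± 0.12) did not pass.

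Interferon response genes moved both ways. Of 33 tested, 7 rose and 7 fell, so that 42.4% were called, near the 40.7% over everything tested. The 5 that fell at least 2-fold were Rsad2, Ifit1, Igtp, Iigp1 and Irgm1. Rsad2, the antiviral viperin gene, went from 3.53 and 3.49 to 1.69 and 1.64 (-1.85 ± 0.07, adjusted p = 9.61e-05). Ifit1, an antiviral RNA-binding protein gene, went from 4.14 and 4.23 to 2.88 and 2.93 (-1.28 ± 0.09, adjusted p = 0.000292). Igtp and Irgm1, interferon-inducible GTPases, fell by 1.10 ± 0.07 and 1.00 ± 0.09. The rises were smaller, from 0.26 to 0.50, and included the transcription factors Irf7 (0.44), Irf9 (0.45) and Stat2 (0.50). The antigen presentation genes B2m (-0.18 ± 0.10) and H2-K1 (-0.15 ± 0.08) did not pass. With no scaling 4 rose and 6 fell.

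Enzymes and receptors of prostaglandin and nitric oxide signalling held 6 rises and 2 falls among 16 tested. Nos2, the inducible nitric oxide synthase gene, went from 1.55 and 1.39 to 3.61 and 3.80 (2.23 ± 0.10, adjusted p = 0.000115), a 4.7-fold rise with wide separation. Pla2g2e, a secreted phospholipase gene, went from -2.44 and -2.30 to -0.95 and -0.88 (1.45 ± 0.09, adjusted p = 0.000199). Ptgfr, the receptor gene for prostaglandin F, rose by 1.30 ± 0.11 and Nos3 by 1.70 ± 0.27. Ptgs2, the inducible cyclooxygenase gene, went the other way, from 3.26 and 3.15 to 2.10 and 2.22 (-1.04 ± 0.09, adjusted p = 0.000575). The constitutive Ptgs1 (-0.12 ± 0.12) did not pass. Of 13 tested complement genes 3 were called: C1qtnf1, a complement-related secreted protein, rose by 1.05 ± 0.08, and the complement inhibitors Cd55 and Cd59a fell by 0.67 ± 0.17 and 0.33 ± 0.07. The fall of Cd55 was lost without either 6 h knockdown array (adjusted p 0.0876 and 0.091), and that of Cd59a without knockdown 3 h replicate 1 (0.0709) or knockdown 6 h replicate 1 (0.0636). With no scaling neither passed (0.134 and 0.609).

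Chaperones of the endoplasmic reticulum and their sensors were lower at 6 h or not called. This unfolded protein response adds folding capacity when proteins misfold. Of 27 tested, 13 fell and 0 rose, against 22.7% and 18% of everything tested, with a median of -0.27. The promoters of Hspa5 and Dnajb9 are shown because they hold letters through which this response is known to act, complete in Hspa5 and in part in Dnajb9. Capitals mark CCAAT and CCACG in the 150 bases before the start, in gene orientation (RefSeq, GRCm38.p6). Hspa5 is at chr2:34771940-34772089 on the plus strand and Dnajb9 at chr12:44210069-44210218 on the minus strand.
Hspa5: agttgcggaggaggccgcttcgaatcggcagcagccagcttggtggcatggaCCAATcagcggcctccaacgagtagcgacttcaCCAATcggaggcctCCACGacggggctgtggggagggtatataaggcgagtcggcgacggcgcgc
Dnajb9: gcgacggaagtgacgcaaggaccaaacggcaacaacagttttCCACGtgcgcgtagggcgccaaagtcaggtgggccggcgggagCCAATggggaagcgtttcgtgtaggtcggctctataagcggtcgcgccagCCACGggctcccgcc
In Hspa5 the CCAAT at -65 and the CCACG at -51 form the full ER stress element (CCAAT, 9 bases of any kind, CCACG). Dnajb9 had no full element in its 300-base window, and its CCACG at -108 overlaps an E-box. Alone, CCAAT was found in 83.3% of the listed genes with an entry and 43.2% of tested genes. For CCACG the shares were 83.3% and 49.8%. Neither high share was particular to this list. Over the other lists searched, CCAAT ran from 23.8% (acute phase) to 80.8% (mitosis). CCACG ran from 38.1% (acute phase) to 87.1% (ribosome biogenesis). The full element was present on either strand in 8 of the 24 listed genes with a promoter entry (33.3%), against 0.137% of all genes and 0.175% of tested genes with one. Of the genes with the element 4 of 8 fell, and of those without it 7 of 16.

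Hspa5, the major chaperone BiP, went from 8.06 and 8.0008 to 7.43 and 7.41 (-0.61 ± 0.06, adjusted p = 0.00089). Dnajb9, its cochaperone, went from 3.03 and 3.00 to 1.49 and 1.73 (-1.41 ± 0.17, adjusted p = 0.00144). Of the sensors and factors, Eif2ak3, which encodes the kinase PERK, went from 1.82 and 1.94 to 0.61 and 0.63 (-1.27 ± 0.07, adjusted p = 0.000152). For each of these genes the times did not overlap. Xbp1 (-1.08 ± 0.10) and the coat protein gene Sec24d (-1.04) complete the 2-fold falls, and Atf6 fell by 0.72 ± 0.07 and Manf by 0.71 ± 0.06. The isomerase gene Pdia6 (-0.17 ± 0.08) and the translocon gene Sec61b (-0.13 ± 0.07) did not pass. Single arrays left out gave 9 to 14 falling members, and no scaling gave 3, losing Atf6 and Manf. Heat shock chaperones of the cytosol were similar in size: 11 of 24 tested fell and Hspa4l rose by 0.51, with a median of -0.20. Bag3, a cochaperone of HSP70, fell from 4.35 and 4.36 to 2.81 and 2.92 (-1.49 ± 0.08, adjusted p = 0.000153), and Dnajb1, another one, from 5.86 and 5.87 to 5.16 and 5.13 (-0.72 ± 0.06). The abundant Hspa8 (-0.08 ± 0.14) and Hsp90ab1 (-0.05 ± 0.07) did not pass, and no scaling gave 3 falls.

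Zinc handling and oxidative defence fell in part. Of 18 tested metallothionein and zinc transporter genes, 8 fell and 0 rose. Beside Slc30a1, the zinc-sensing transcription factor gene Mtf1 went from 0.89 and 0.81 to -0.55 and -0.47 (-1.36 ± 0.06, adjusted p = 0.000125). The importer genes Slc39a4 (-1.36 ± 0.12) and Slc39a14 (-0.79 ± 0.08) fell as well, the latter not with unscaled arrays, where 3 members fell. The metallothioneins Mt1, at 8.67 and 8.59 and then 8.65 and 8.57, and Mt2 were among the brightest probes and did not pass (-0.03 ± 0.10 and -0.19 ± 0.12). Of 25 tested NRF2 and glutathione genes, 9 fell and 3 rose. Nfe2l2, which encodes the sensor factor NRF2, went from 4.94 and 4.80 to 3.52 and 3.68 (-1.27 ± 0.11, adjusted p = 0.000628). Hmox1, haem oxygenase, fell by 1.35 ± 0.08, the thioredoxin reductase gene Txnrd1 by 1.54 ± 0.08 and Osgin1 by 1.62 ± 0.06. Those that rose were Nqo1 (0.46), Gsta3 (0.59) and Gsr (0.59), enzymes of quinone and glutathione chemistry, and the ferritin genes Fth1 (-0.12 ± 0.10) and Ftl1 (-0.17 ± 0.15) did not pass. No scaling gave 3 rises and 4 falls.

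The amino acid stress genes of ATF4 held 1 of the largest rises of all. Chac1, an enzyme that breaks down glutathione, went from 2.41 and 2.36 to 4.81 and 4.94, a rise of 5.61-fold (2.49 ± 0.07, adjusted p = 8.18e-05), with a gap of over 2 log2 units between the times. Its promoter is shown because it holds a site of the kind that ATF4 binds with C/EBP proteins, TTGCATCA, in capitals. The 220 bases before the start are at chr2:119351022-119351241 on the plus strand (RefSeq, GRCm38.p6).
Chac1: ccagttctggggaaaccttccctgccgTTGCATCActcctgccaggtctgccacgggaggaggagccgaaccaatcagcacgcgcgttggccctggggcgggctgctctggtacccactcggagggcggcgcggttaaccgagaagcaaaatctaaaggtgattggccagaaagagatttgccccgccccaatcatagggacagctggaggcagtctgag
The site begins at -193. On either strand of the 300-base windows these letters were found in 5 of 25 genes of the list with an entry (20%) and in 1.03% of all genes. Of 30 tested genes of the list, 4 rose and 10 fell. The other rises were Ddit3, the death-promoting factor CHOP (2.49 and 2.39 to 3.43 and 3.41, 0.98 ± 0.07), the pseudokinase gene Trib3 (1.07 ± 0.09) and the mitochondrial folate enzyme gene Mthfd1l (0.87 ± 0.07). The falls were led by amino acid transporters: Slc7a1, the cationic one, went from 4.99 and 5.05 to 3.66 and 3.65 (-1.37 ± 0.08, adjusted p = 0.000165), and Slc1a5 (-1.003), Slc7a5 (-0.50), Slc3a2 (-0.46) and Slc38a2 (-0.44) fell too. Atf4 itself (0.15 ± 0.08, adjusted p = 0.175) and Atf5 (-0.12 ± 0.06) did not pass. The falls numbered 6 without knockdown 3 h replicate 1 or without knockdown 6 h replicate 1, and 2 with no scaling.

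Fat cell genes changed in both directions, while Pparg was not called. Pparg, the master factor of fat cell formation, was at 2.07 and 2.02 and then 1.96 and 2.00 (-0.06 ± 0.06, adjusted p = 0.432). Of 22 tested genes of adipocyte identity and PPARG targets, 8 rose and 7 fell. Ebf2, a factor of preadipocyte and brown fat identity, rose from -4.08 and -3.97 to -1.96 and -1.79 (2.15 ± 0.08, adjusted p = 0.000101), and its relative Ebf1 by 1.08 ± 0.09. Gpd1, the glycerol phosphate enzyme of fat cells, fell from -0.57 and -0.62 to -2.62 and -2.60 (-2.02 ± 0.06, adjusted p = 8.18e-05). Cebpa fell from -1.92 and -1.78 to -2.49 and -2.36 (-0.58 ± 0.09, adjusted p = 0.00364), a call lost with no scaling. Fabp4, the fatty acid carrier used as a fat cell marker, moved from 5.30 and 5.26 to 5.00 and 5.03 (-0.26 ± 0.06, adjusted p = 0.0208), and this was lost without any 1 of the knockdown arrays (adjusted p 0.0702 to 0.109). Lpl (0.00 ± 0.06) and Plin2 (-0.17 ± 0.07) did not pass. Of the 10 preadipocyte and fibroblast markers, 2 rose, 1 fell and 7 were not called, with a median of -0.07. Fap, a protease of activated fibroblasts, fell by 0.62 ± 0.08. Pdgfra, a growth factor receptor, rose by 0.32 ± 0.07, a call lost without either 3 h knockdown array (adjusted p 0.0923 and 0.0639) or without knockdown 6 h replicate 2 (0.085). Cd34 rose by 1.31 ± 0.14, although another probe moved the other way at an unadjusted p under 0.05 and the mean of its probes did not pass (adjusted p = 0.161). Dlk1, the preadipocyte factor, was bright and not called (-0.14 ± 0.07, adjusted p = 0.137).

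Lipid enzymes were likewise split by gene. Of 24 tested genes of fatty acid and triglyceride synthesis, 8 rose and 6 fell. The falls numbered 2 without knockdown 3 h replicate 2 or either 6 h knockdown array, 4 or 5 without another array, and 2 with no scaling. Fasn, fatty acid synthase, fell from -0.65 and -0.79 to -2.24 and -2.07 (-1.44 ± 0.09, adjusted p = 0.000212), while Acacb, the mitochondria-associated acetyl-CoA carboxylase gene, rose from -1.36 and -1.30 to -0.30 and -0.22 (1.07 ± 0.06, adjusted p = 0.0002). Dgat2, which makes triglyceride, rose by 0.90 ± 0.07 and Lpin2 fell by 1.01 ± 0.10. Acly (0.04 ± 0.08) and Scd2 (0.17 ± 0.06) did not pass. Of 25 tested genes of lipolysis and fatty acid oxidation, 8 rose and 6 fell: the triglyceride lipase gene Pnpla2 fell from 2.64 and 2.73 to 1.75 and 1.90 (-0.86 ± 0.08, adjusted p = 0.000563), and the monoglyceride lipase gene Mgll rose by 0.81 ± 0.07, a call lost with normexp correction (adjusted p = 0.266). Acot1 rose by 0.88 ± 0.06, and Ppard, a PPAR of oxidative tissues, fell by 0.71 ± 0.06, the latter not without scaling. Angptl4 (0.15 ± 0.07, adjusted p = 0.137), a PPAR target that inhibits lipoprotein lipase, did not pass. Of 26 tested cholesterol genes 7 rose, led by the efflux pump genes Abca1 (0.80 ± 0.10) and Abcg1 (1.01 ± 0.18), and 7 fell, Cyp51 by the most (-0.54). The falls were 0 to 6 with an array left out, 0 without knockdown 3 h replicate 1, 1 without knockdown 3 h replicate 2 or knockdown 6 h replicate 1, 4 without knockdown 6 h replicate 2, and 0 with no scaling.

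**Figure D3:**
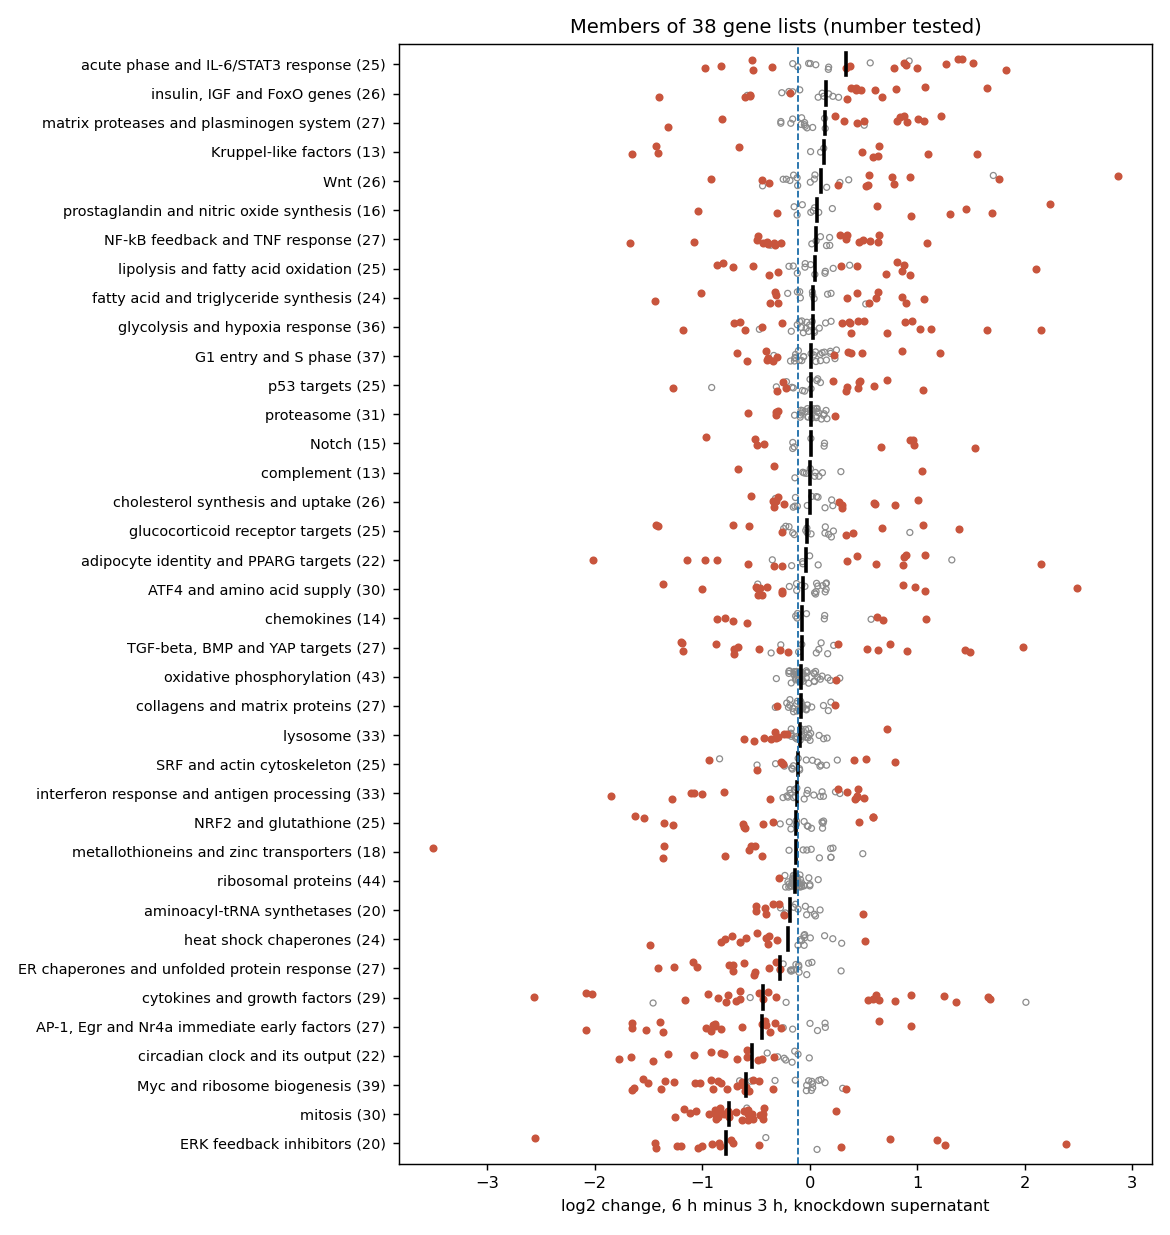
Change from 3 h to 6 h with knockdown supernatant for each tested member of 38 gene lists, on a log2 axis; filled points passed an adjusted p under 0.05, open points did not, black bars are list medians and the dashed line is the median of everything tested, -0.11. List medians run from -0.78 for ERK feedback inhibitors to 0.34 for the acute phase, and ribosomal proteins, oxidative phosphorylation and collagens cluster near the dashed line.

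Glucose and insulin genes changed in both directions. Of 36 tested genes of glycolysis and the hypoxia response, 13 rose and 6 fell, where 18% of everything tested rose and 22.7% fell, and with no scaling 8 rose and 2 fell. Slc16a3, the lactate exporter gene, rose from -2.53 and -2.48 to -0.45 and -0.25 (2.15 ± 0.10, adjusted p = 0.000124). Ndrg1 rose by 1.13 ± 0.07 and Eno2, an enolase gene, by 0.95 ± 0.08. The 6 that fell were Hk2 (-1.17), Pfkfb4 (-0.70), Vegfa (-0.64), Pfkfb3 (-0.60), Kdm3a (-0.45) and Ddit4 (-0.25). The reference genes Gapdh (-0.08 ± 0.10) and Aldoa (0.00 ± 0.08) did not pass. Of 26 tested insulin, IGF and FoxO genes, 10 rose and 5 fell. With an array left out 8 to 10 rose and 3 to 4 fell, 3 for every array except knockdown 6 h replicate 2, and with no scaling 8 rose and 1 fell. Txnip, which limits glucose uptake, rose from 3.20 and 3.18 to 4.76 and 4.92 (1.65 ± 0.07, adjusted p = 0.000118), and Trib1 fell from 2.98 and 2.87 to 1.51 and 1.54 (-1.40 ± 0.09, adjusted p = 0.000241). The kinase gene Akt2 fell by 0.55 ± 0.08, a call lost with no scaling, and Akt1 was not called (0.08 ± 0.08). Glucocorticoid receptor targets held 5 rises and 5 falls among 25 tested, or 40% called, near the 40.7% over everything tested. Zbtb16 (1.39 ± 0.11) and Arrdc2 (1.05 ± 0.12) rose, and Klf9 (-1.41 ± 0.07) and Errfi1 fell.

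Signalling families of development and matrix turnover showed single large movers. Of 27 tested genes of TGF-beta, BMP and YAP, 8 rose and 10 fell. Id4, an inhibitor of helix-loop-helix factors, rose from -2.42 and -2.30 to -0.26 and -0.50 (1.98 ± 0.11, adjusted p = 0.000156). Negative regulators of the pathway fell: Smad7 by 1.19 ± 0.07, Skil by 1.18 ± 0.07 and Tgif1, which went from 5.76 and 5.72 to 4.49 and 4.59, by 1.20 ± 0.06. With no scaling 7 rose and 4 fell. Of 26 tested Wnt genes, 9 rose and 3 fell, with Dkk3 up by 1.76 ± 0.17, the receptor gene Fzd2 by 0.77 ± 0.07 and Wnt4 down by 0.91 ± 0.09. Tcf7, a Wnt-responsive transcription factor, was not above background at 3 h and was at least 3.7-fold higher at 6 h. In the Notch list 5 of 15 rose and 4 fell, with the receptor gene Notch4 up by 1.54 ± 0.09, the ligand gene Jag1 by 0.93 ± 0.08 and the target Hes1 down by 0.96. Of 13 Kruppel-like factors tested, 6 rose and 4 fell: Klf2 went from 1.44 and 1.50 to 2.99 and 3.07 (1.56 ± 0.07, adjusted p = 0.000125), Klf3 rose by 0.64 ± 0.07, and Klf5 fell by 1.43 ± 0.14, with Klf4 at 0.01 ± 0.13.

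Matrix proteases and the plasminogen system held 11 rises and 2 falls among 27 tested, beside 18% and 22.7% over everything tested. Adamts4, a protease of cartilage proteoglycan, went from 1.34 and 1.39 to 2.57 and 2.60 (1.23 ± 0.06, adjusted p = 0.000131), and Adamts15 rose by 1.06 ± 0.09. F3, tissue factor, which starts coagulation, went from 4.83 and 4.91 to 5.71 and 5.66 (0.81 ± 0.07, adjusted p = 0.000494). The 2 falls were the urokinase receptor gene Plaur (-1.32 ± 0.09) and the urokinase gene Plau (-0.82). Rises numbered 7 without knockdown 3 h replicate 1, without knockdown 3 h replicate 2 or without knockdown 6 h replicate 2, and 7 under either median scaling or no scaling. Of 27 tested collagen and matrix protein genes, which include substrates of such proteases, 1 rose and 1 fell. These were Fbn1 (0.24 ± 0.07, adjusted p = 0.0328) and Col6a2 (-0.31 ± 0.08, adjusted p = 0.028). Each call was lost with any knockdown array or control 3 h array left out, at adjusted p-values of 0.0574 to 0.149 for Fbn1 and 0.0552 to 0.137 for Col6a2. Among 25 tested SRF and actin genes, 3 rose and 5 fell, shares near the 18% and 22.7% over everything tested. The falls numbered 2 without either 3 h knockdown array or knockdown 6 h replicate 1, 3 without knockdown 6 h replicate 2 or a control 3 h array, and 1 with no scaling. Filip1l rose by 0.79 ± 0.14 and Vil1 fell by 0.93 ± 0.08, and Actb (-0.03 ± 0.13) and Actg1 (-0.09 ± 0.13) did not pass. The signs of the collagen and actin list medians, -0.08 and -0.11, turned with no scaling.

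Targets of p53 numbered 9 rises and 4 falls among 25 tested. Bbc3, the death gene PUMA, rose from 1.42 and 1.36 to 2.42 and 2.48 (1.06 ± 0.10, adjusted p = 0.000779), Trp53inp1 by 0.72 ± 0.10 and Gadd45b by 0.60 ± 0.08. Plk3, a stress kinase, fell from 1.85 and 1.85 to 0.52 and 0.64 (-1.27 ± 0.07, adjusted p = 0.000152). Mdm2, the ubiquitin ligase of p53, was very bright and not called (-0.21 ± 0.15, adjusted p = 0.302). Rises numbered 5 without knockdown 3 h replicate 1, 4 without knockdown 3 h replicate 2 and 5 with no scaling. Falls numbered 1 without either 3 h knockdown array or knockdown 6 h replicate 1, and 2 without knockdown 6 h replicate 2 or with no scaling.

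Housekeeping machines of energy and protein breakdown were close to the overall median. Of 43 oxidative phosphorylation genes tested, which form the respiratory chain and ATP synthase, 1 passed: Sdha rose by 0.24 ± 0.06 (adjusted p = 0.0231). That call was lost without either 3 h knockdown array (adjusted p 0.111 and 0.0884) or without knockdown 6 h replicate 1 (0.113), and with median scaling (0.162). Changes in the list stayed between -0.31 and 0.28, and Cox4i1 (-0.07 ± 0.08) and Cox6a1 (-0.14 ± 0.08) were its brightest uncalled members. Of 31 proteasome genes 1 rose and 4 fell, the clearest being the ATPase gene Psmc6, from 4.26 and 4.25 to 3.68 and 3.70 (-0.57 ± 0.06, adjusted p = 0.00101), a call not kept with no scaling. With an array left out 0 proteasome genes rose and 1 to 4 fell, 1 of them without knockdown 3 h replicate 1 or knockdown 6 h replicate 2, and no scaling gave 0 calls. Of 33 lysosomal genes 9 fell, and Mcoln1, the calcium channel of the lysosome, rose from 3.39 and 3.41 to 4.12 and 4.12 (0.72 ± 0.07, adjusted p = 0.000727). The autophagy receptor gene Sqstm1 (-0.61 ± 0.08) and the proton pump subunit gene Atp6v1h (-0.52 ± 0.08) fell, and Lamp1 (-0.17 ± 0.10) and Ctsl (0.00 ± 0.07) did not pass. Lysosomal falls numbered 2 without knockdown 3 h replicate 1 or knockdown 6 h replicate 1, 3 without knockdown 3 h replicate 2, 4 without knockdown 6 h replicate 2 and 0 with no scaling.

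Most genes changed in the same direction over the same time with control supernatant, measured on the other 4 arrays of the same fit. Across the 25428 genes and probes the 2 changes correlated at 0.82 (Pearson) and 0.786 (Spearman), over genes that are not independent and on arrays that share the slide row of their time. Of the 10349 genes called with knockdown supernatant, 10059 (97.2%) had the same sign with control supernatant, and of the 2410 with a 2-fold change, 2387 did. Kif26b changed by 3.60 with knockdown and 3.62 with control supernatant, Chac1 by 2.49 and 2.67, Nos2 by 2.23 and 2.31, Slc30a1 by -3.50 and -3.28, and Ereg by -2.56 and -2.81. For each of these genes both supernatants gave the same direction. List medians were also near each other: -0.75 and -0.72 for mitosis, -0.59 and -0.66 for ribosome biogenesis, -0.53 and -0.51 for the clock, and -0.44 and -0.66 for the immediate early factors. The difference between the 2 changes, tested as an interaction in limma, passed for 0 genes, with 2234 at an unadjusted p under 0.05. It passed for 8 with an intensity-trended variance and for 1 with quantile normalization. The number also varied with single arrays left out, most with a control 6 h array, a fit with no replicate in that group. Missing the threshold does not show that the changes were equal. Egr2, an immediate early factor, fell by 0.96 with knockdown and 1.94 with control supernatant, with an adjusted p of 0.257 for the difference.

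**Figure D4:**
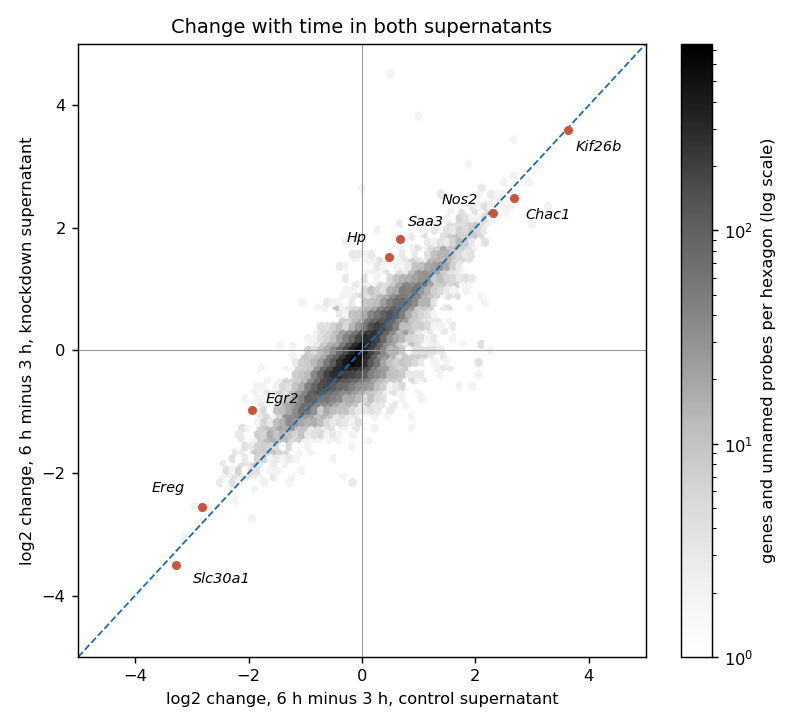
Change from 3 h to 6 h with control supernatant (horizontal) and knockdown supernatant (vertical), both in log2 units, for the tested genes and unnamed probes; darker hexagons hold more of them on a log scale, the dashed line marks equal changes, and 4 lie beyond the axes. The labelled genes Kif26b, Chac1, Nos2, Ereg and Slc30a1 lie near the line, and Saa3, Hp and Egr2 lie above it.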

How the data were processed

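RNA from 3T3-L1 cells was labelled with Cy3 and hybridised to one-colour Agilent arrays, 2 per group in 4 groups. Per the file headers, the deposited scanner files hold each spot's processed signal, a background-subtracted intensity. The submitters' processing notes name the software as Agilent Feature Extraction, in version 10.7.3.1. The deposited value table holds log2 values equal to the log2 processed signal minus 1 shift per array (r = 1.0 on every array), with column medians from -4.23 to -3.95. Its rows match the scanner files by probe, so scale and direction are known here, and only the reason for the shift is not.

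From the scanner files, control spots and outlier spots were left out, processed signals were put on the log2 scale, and each array's 75th percentile was subtracted. Repeated spots of a probe entered as their mean. RefSeq gave names to 27235 of the 55681 probes by accession and to 20 by symbol, and 28426 were kept unnamed. Probes well above background on both arrays of the 3 h or 6 h knockdown group were tested, with the brightest probe standing for a gene. One model over all 8 arrays was fitted with limma 3.58.1 in R 4.3.3 (4 residual and 1.8 prior degrees of freedom), with Benjamini-Hochberg adjustment over 25428 genes and probes and a threshold of 0.05. The code was tested on simulated data. A bound sets the group with signal against the lowest signal well above background on each dim array. Alternatives were median, no and quantile scaling, normexp on median signals (offset 50; mean signals were not used here), the deposited table, other filters, array weights, a trended variance, a replicate block, masked bright patches, the mean of probes, the 4 knockdown arrays alone, and each array left out.

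Members and gene lists were chosen with earlier results of these data known. Named genes are the 12 largest changes each way, the 4 largest bounds each way, up to 4 members of each list with the smallest p, up to 2 bright members that did not pass, and Usp2, Fabp4, Pparg, Il6, Saa3, Dlk1, Gapdh and Actb. The 12 each way had to be called, with signal on all 4 knockdown arrays, no bright patch there and no overlap between the times. Other names complete small counts or give examples of a list and were chosen after their values were seen. Some genes that the rule names are not reported here. Promoter windows are from RefSeq on GRCm38.p6, and no gene coordinates of another build are given.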

Additional observations from a re-analysis of the deposited data

Results flagged for a closer look

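In these 6 genes both 6 h arrays lay to the same side of both 3 h arrays with knockdown supernatant. With control supernatant they lay to the opposite side. All 6 were called with knockdown supernatant and had signal on all 8 arrays. Such opposite movement was found for 111 called genes and probes, 66 of them named and 56 of these with signal on all 8 arrays and no bright patch. The 6 given here had the smallest p for the difference and were chosen after values were seen. The difference was tested for each in limma, and it did not pass an adjusted p of 0.05 for any of the 6. Etv5, an Ets transcription factor gene, changed by 0.29 with knockdown and -0.78 with control supernatant (adjusted p of the difference 0.188). Its knockdown levels were 2.81 and 2.83 at 3 h and 3.08 and 3.15 at 6 h. Akr1c14, an aldo-keto reductase gene, changed by -0.46 and 0.33 (0.188), and Agtr2, an angiotensin receptor gene, by -0.30 and 0.80 (0.203). Lce1i, of the cornified envelope family, changed by 0.96 and -0.46 (0.203). Slc12a2, an ion cotransporter gene, changed by 0.55 and -0.09 (0.205), and Igfbp5, a binding protein of insulin-like growth factors, by -0.60 and 0.34 (0.29). The control change of Slc12a2 is about as small as the shifts between scalings, so its direction is not settled. The knockdown call of Agtr2 was lost with any of the 8 arrays left out, and that of Etv5 with any knockdown array left out.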

How the results depend on the processing

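Every gene called under both the main settings and another scaling, background correction or filter kept its sign, and with the mean of probes 10 did not. With no scaling between arrays 5576 genes and probes changed, 1868 of them lower, and 5327 were shared with the main 10349. With no filter on background 3487 were lower. A 2-fold minimum left 2410 changed, 1345 higher and 1065 lower. The difference between supernatants passed for 1 gene with quantile normalization and for 8 with a trended variance, against 0. With each array left out in turn, 6768 to 11937 changed, 3265 to 5010 were higher, 3503 to 6927 were lower, and 0 to 279 differed between supernatants. Dusp2, not called in the main settings, was 0.64 higher without knockdown 6 h replicate 1 (adjusted p = 0.018), which leaves the higher of its 6 h arrays, and changed by -1.45 without knockdown 6 h replicate 2. Of 262 genes named by rule 184 were called, and 25 of these lost the call with some array left out. Replicate numbers did not pair the arrays (r = 0.034 between deviations of the 3 h and 6 h knockdown arrays), and the fit with a replicate block called 10215. Signal over background limits 618 called genes and probes that were dim on a whole group.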

Other observations

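Gene families grouped by the start of their symbols, after values were seen and with no test of the group, gave the following counts. The Eif family shares Eif2ak3 with the ER chaperone list described above, and the Sec family shares Sec24d and Sec61b. Of 17 tested clustered protocadherin beta genes (Pcdhb), which encode adhesion proteins of neurons, 13 rose and 0 fell, with a median change of 0.483 with knockdown and 0.435 with control supernatant. These genes are near-identical in parts, so their probes may share signal. In the other direction, 24 of 53 Eif genes, mostly of translation initiation factors, fell and 1 rose (median -0.203). Of 33 Rbm genes, mostly of RNA-binding proteins, 19 fell and 4 rose (-0.365), with Rbm3os among the rises. Of 13 Prpf splicing factor genes, 8 fell and 2 rose (-0.494). Of 37 Ube genes, which mostly encode ubiquitin-conjugating enzymes, 20 fell and 2 rose (-0.305), and of 24 Sec genes, mostly of vesicle coats and protein export, 13 fell and 0 rose (-0.263). Of 336 zinc finger genes named Zfp, 101 rose and 64 fell (0.035). Over everything tested 18% were higher and 22.7% lower.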
